A study of Mus musculus with 10 samples.

Results

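The genes Piezo1, Piezo2, Trpc1, Trpc6, Trpv4 and Trpm7 encode cation channels of the cell surface, and their RNA levels were described in 5 populations of sorted mouse mammary gland cells. All 6 were found by symbol in the gene annotation among 49671 gene identifiers, and all 6 passed the filter on low counts, as did 19757 genes in all. They were chosen by measured values of these same libraries: Piezo2 and Trpc6 were high in control luminal cells and higher in the hybrid cells than in the other Tomato populations. The levels of those 2 genes are therefore given as a description with no test. The other 4 genes were tested in every comparison.

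RNA of FACS-sorted cells was sequenced in 10 libraries, with 2 per population. The controls were basal cells (BC) and luminal cells (LC), for which no treatment is named; 1 library of either, here replicate 2, has the label WT. The other populations are named for Tomato, a red fluorescent protein, and were taken after luminal cell ablation, the removal of luminal cells: Tomato basal (TBC), hybrid (THC) and luminal (TLC) cells. Any contrast of these with BC or LC thus spans both the ablation and the Tomato sort. No strain, age, promoter or transgene is stated, and no label ties the 2 libraries of a population to separate animals, so the p-values reflect spread between these samples, which may be technical.

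The libraries held 2757773 to 13685674 counts assigned to genes, with the fewest in THC replicate 1, where 3 counts equalled 1.16 CPM (normalised counts scaled to a common library size). That library also had the largest share of reads without a unique alignment, 43% against 14.6% to 22.4% in the others. The sort labels were checked with 10 basal markers (such as Krt5, Krt14 and Acta2) and 10 luminal markers (such as Krt8, Krt18 and Epcam). Their summed levels ran in opposite directions. Basal markers summed to between 10610 and 17270 CPM in the BC and TBC libraries, 4623 and 5707 in THC, 854 and 1326 in TLC, and 128 and 223 in LC. Luminal markers summed to between 887 and 1695 CPM in BC and TBC, 3185 and 4567 in THC, 4992 and 6233 in TLC, and 8272 and 10550 in LC.

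Piezo channels are very large proteins that open when the membrane is stretched and let calcium and other cations into the cell. Piezo2 is best known as the touch receptor channel of sensory neurons and Merkel cells, and Piezo1 is used by many tissues, blood vessels and epithelia among them. Trp channels answer other cues: Trpc6 opens to diacylglycerol, a lipid made by phospholipase C, Trpc1 takes part in calcium entry after internal stores are emptied, Trpv4 opens to swelling and warmth, and Trpm7 joins a magnesium-permeable channel to a kinase. In the mammary gland, basal myoepithelial cells contract on a calcium signal to expel milk, and luminal cells move calcium into milk.

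The start regions of 3 of the genes are shown because these genes represent the 2 opposite patterns described here, Trpc6 and Piezo1 being highest in LC and Trpv4 in BC. Each sequence is the 250 bases before the RefSeq start of the gene in GRCm38.p6, written 5′ to 3′ on the strand of the gene. Trpc6 is at chr9:8543892-8544141 on the plus strand, Piezo1 at chr8:122551330-122551579 and Trpv4 at chr5:114658422-114658671, both on the minus strand. Capitals mark matches on either strand to any of 6 short motifs, which are spelled out after the sequences.
Trpc6: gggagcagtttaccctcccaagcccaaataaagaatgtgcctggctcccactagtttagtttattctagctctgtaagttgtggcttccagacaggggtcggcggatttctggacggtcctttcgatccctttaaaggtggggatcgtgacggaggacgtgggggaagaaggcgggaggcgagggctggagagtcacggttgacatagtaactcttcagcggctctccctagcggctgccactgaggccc
Piezo1: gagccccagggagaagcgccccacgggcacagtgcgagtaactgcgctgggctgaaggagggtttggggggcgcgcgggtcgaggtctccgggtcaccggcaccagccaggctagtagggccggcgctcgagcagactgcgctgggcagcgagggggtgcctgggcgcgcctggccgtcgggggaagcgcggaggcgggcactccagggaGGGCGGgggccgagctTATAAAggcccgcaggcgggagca
Trpv4: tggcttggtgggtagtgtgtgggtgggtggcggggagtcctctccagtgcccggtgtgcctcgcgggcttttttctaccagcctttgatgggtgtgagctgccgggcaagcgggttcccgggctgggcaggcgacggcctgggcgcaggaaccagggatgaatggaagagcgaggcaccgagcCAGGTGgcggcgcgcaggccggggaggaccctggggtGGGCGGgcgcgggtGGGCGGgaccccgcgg
None of the 6 motifs was found in the Trpc6 window. The Piezo1 window held 1 GC box and 1 TATA box, the latter beginning 24 bases before the start. The Trpv4 window held 2 GC boxes and 1 CAGGTG. No marked matches overlapped each other. The background is the share of 32851 RefSeq promoter windows of this length with a match. The GC box, spelled GGGCGG, was present in 32.7% of them. The TATA box, spelled TATAAA, was present in 12.4%. The E-box variant CAGGTG was present in 17.2% of windows. The AP-1 site was searched as TGANTCA and was present in 6.75%. The TEAD site was searched as GGAATG and was present in 12.6%. The forkhead site was searched as TGTTTAC and was present in 3.17%. The G and C share was 56.4% for Trpc6, 74% for Piezo1 and 72% for Trpv4. A match of letters is a description only.

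Piezo2 (ENSMUSG00000041482, chromosome 18, 63010213 to 63387183, minus strand) was highest in LC and second in THC. For replicates 1 and 2 it stood at 242 and 436 CPM in LC and at 71.7 and 75.3 in THC. TLC had 25.4 and 28.6 CPM, BC 15.9 and 17.8, and TBC 12.6 and 8.14. The 5 populations did not overlap, and the order from high to low was LC, THC, TLC, BC and TBC. The mean was 20.2 times as high in LC as in BC. In THC it was 7.08 times the mean of TBC, 2.72 times that of TLC, 4.37 times that of BC, and 0.217 of that of LC. These ratios chose the gene and are a description. In bulk RNA, fewer cells of a type and less RNA per cell cannot be told apart. The LC libraries also differed most from each other, with an SD of 137 CPM around a mean of 339 (n = 2).

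Trpc6 (ENSMUSG00000031997, chromosome 9, 8544142 to 8680741, plus strand) was likewise highest in LC and second in THC, at lower counts. Its level was 108 and 118 CPM in LC, 17.4 and 24.2 in THC, 4.74 and 8.92 in TLC, 7.06 and 5.36 in BC, and 5.21 and 3.08 in TBC. LC stood far above THC, and THC above the other 3 populations. Both BC libraries lay above both TBC libraries, and TLC overlapped each of them. The mean was 18.2 times as high in LC as in BC, 5.02 times as high in THC as in TBC and 3.05 times as high in THC as in TLC. Between the luminal populations, the LC mean was 12.6 times the TLC mean for Piezo2 and 16.6 times for Trpc6. As for Piezo2, these values chose the gene.

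**Figure D1:**
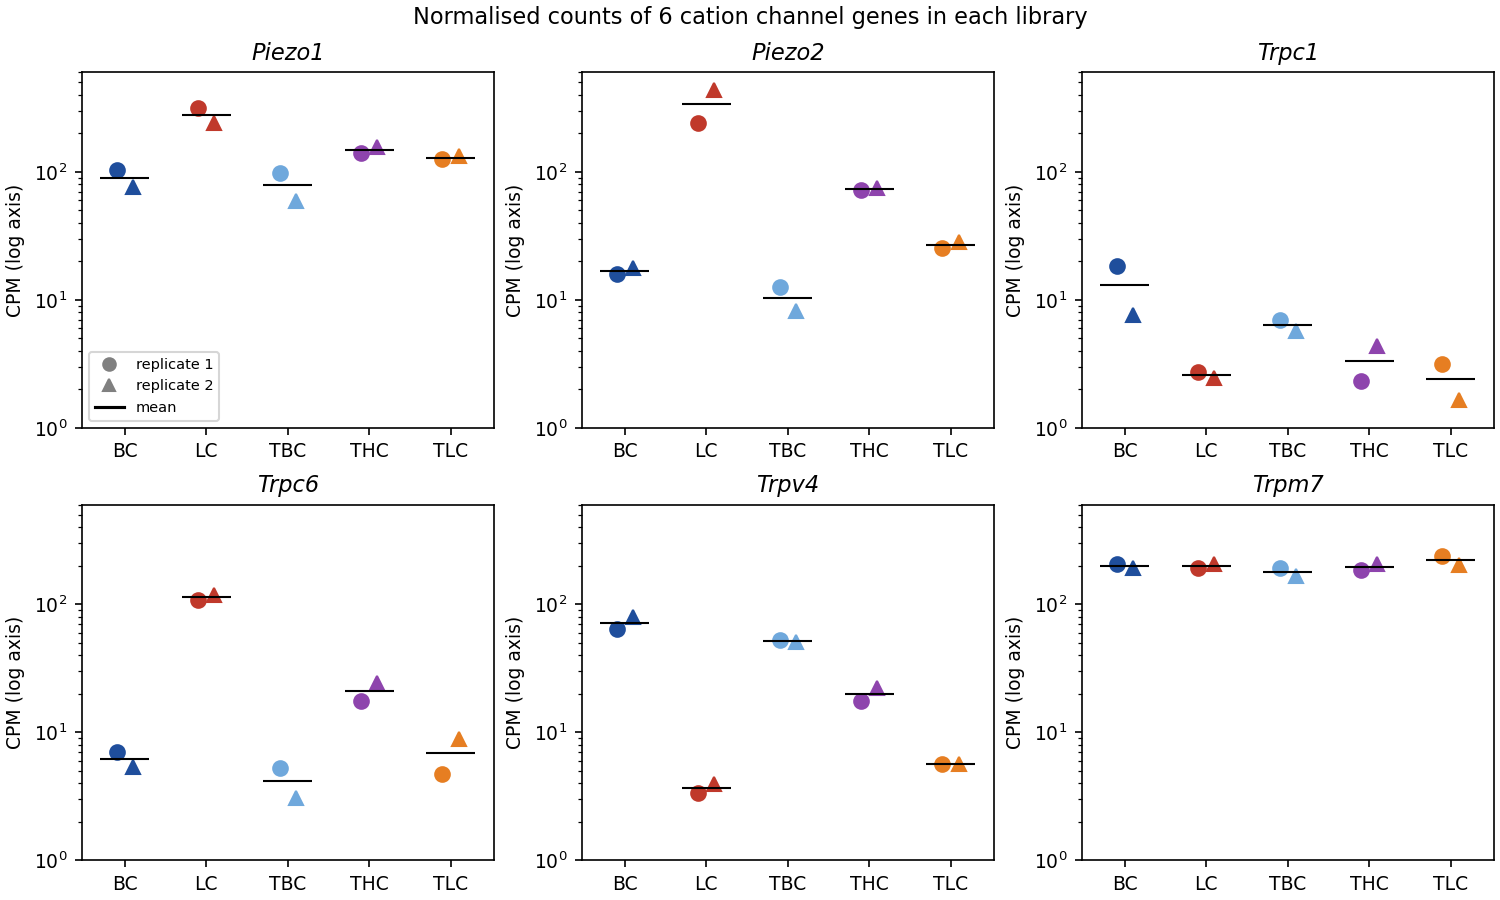
Normalised counts (CPM, log axis) of the 6 channels in each of the 10 libraries, by population; circles are replicate 1, triangles replicate 2 and bars the mean. Piezo2 and Trpc6 are highest in LC with THC next, Trpv4 runs from BC and TBC down to LC, and Trpm7 stays between 166 and 239 CPM.

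Between TLC and TBC, the Tomato luminal and basal cells, the Piezo2 mean was 2.60 times as high in TLC and both TLC libraries lay above both TBC libraries. For Trpc6 the TLC minus TBC difference on the log2 scale was 0.80, but it was -0.13 between the first libraries and 1.47 between the second. The TBC and TLC levels also entered the choice of both genes, so these values too are a description.

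Piezo1 (ENSMUSG00000014444, chromosome 8, 122481698 to 122551329, minus strand) also ran highest in LC, over a narrower range. It stood at 313 and 240 CPM in LC, 140 and 156 in THC, 126 and 133 in TLC, 104 and 75.6 in BC, and 98.2 and 59.7 in TBC. LC did not overlap any other population, THC lay just above TLC, and the BC and TBC libraries overlapped. Piezo1 was 3.07 times as high in LC as in BC, a log2 difference of 1.62 (SE 0.27, adjusted p = 0.00112, from edgeR by quasi-likelihood and adjusted over all genes). It fell in TLC against LC by 1.09 (SE 0.27, adjusted p = 0.0282), to 0.469 of the LC mean. It was also lower in THC than in LC, at a log2 value of -0.90 (SE 0.27, adjusted p = 0.0475).

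The LC over BC difference of Piezo1 passed in all 11 alternative fits, whereas the other 2 calls did not. Leaving out any 1 of the 4 libraries gave an adjusted p of 0.0595 to 0.153 for TLC against LC (without LC replicate 2 and TLC replicate 1) and of 0.0695 to 0.222 for THC against LC (without LC replicate 2 and THC replicate 1). Against the basal populations, THC stood 0.72 above BC (adjusted p = 0.124) and 0.91 above TBC (adjusted p = 0.0934), and TLC stood 0.72 above TBC (adjusted p = 0.108), on the log2 scale. The THC and TBC difference passed with no filter on low counts (adjusted p = 0.0133), and the TLC and TBC difference without TBC replicate 1 (adjusted p = 0.0493). Between THC and TLC the difference was 0.19 with a 95% interval of -0.39 to 0.78 (adjusted p = 0.905). Exons of Piezo1 share 2441 bases with exons of Ctu2, a gene on the other strand. The strand setting of the counting is not given, so it is not known how reads there were counted. They may have been given to either gene or set aside as ambiguous. Ctu2 was also second among the genes most like Piezo1 (r = 0.98 over the 10 libraries), at a mean of 50.1 CPM in LC and 24.1 in BC.

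Trpv4 (ENSMUSG00000014158, chromosome 5, 114622152 to 114658421, minus strand) showed the opposite course, highest in BC and lowest in LC. Its level was 63.5 and 79.9 CPM in BC, 52.4 and 50.4 in TBC, 17.4 and 22.1 in THC, 5.61 and 5.64 in TLC, and 3.36 and 3.95 in LC. No population overlapped another, and the order was BC, TBC, THC, TLC and LC. The BC mean was 19.6 times the LC mean, a log2 difference of -4.28 for LC against BC (SE 0.26, adjusted p = 3.01e-06). TLC stood below TBC by 9.13 times, at -3.19 (SE 0.25, adjusted p = 4.29e-05). Both of these calls passed in all 11 alternative fits of each.

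THC held an intermediate level of Trpv4 that differed from every population it was compared with. It was lower than BC, at a log2 value of -1.84 (SE 0.23, adjusted p = 0.00249) and lower than TBC, at -1.36 (SE 0.23, adjusted p = 0.00948). It was higher than TLC by 1.83 (SE 0.25, adjusted p = 0.00621) and higher than LC by 2.44 (SE 0.25, adjusted p = 0.00018). The differences from BC and LC passed in all 11 alternative fits of each. The THC and TBC call was lost without TBC replicate 1 (adjusted p = 0.0719) and without THC replicate 1 (adjusted p = 0.081). The THC and TLC call was lost without THC replicate 2 (adjusted p = 0.0792), TLC replicate 1 (adjusted p = 0.0584) or TLC replicate 2 (adjusted p = 0.12), and the log2 values stayed between 1.59 and 1.97 in the fits that leave out 1 library.

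**Figure D2:**
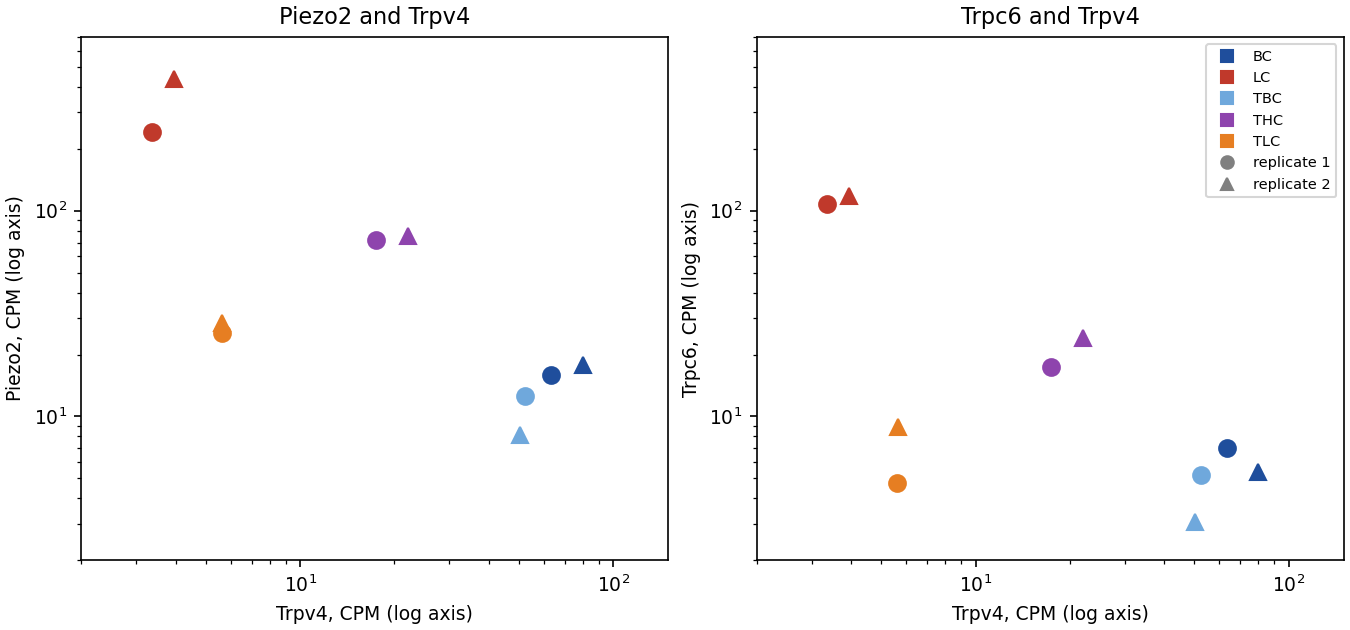
Piezo2 (left) and Trpc6 (right) against Trpv4 in each library, in CPM on log axes; colours are populations, circles replicate 1 and triangles replicate 2. THC has 17.4 and 22.1 CPM of Trpv4 together with 71.7 and 75.3 of Piezo2, whereas TLC lies low on Trpv4 and BC and TBC lie low on Piezo2 and Trpc6.

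In THC the luminal-high and basal-high channels were measured in the same RNA pool, which does not show whether single cells carried both. Per length of exon (RPKM, counts scaled to exon length and library size), the THC levels of Trpv4, Piezo2 and Trpc6 came close together, at 4.85 ± 0.80, 4.28 ± 0.15 and 4.11 ± 0.94 (SD, n = 2). In BC, Trpv4 stood at 17.6 ± 2.85 RPKM against 0.98 ± 0.08 for Piezo2 and 1.23 ± 0.24 for Trpc6 (SD, n = 2). In LC, Trpv4 stood at 0.90 ± 0.10 RPKM against 19.8 ± 7.99 for Piezo2 and 22.3 ± 1.49 for Trpc6 (SD, n = 2). In TLC the means of the 3 genes lay between 1.35 and 1.57 RPKM.

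Trpc1 (ENSMUSG00000032839, chromosome 9, 95705082 to 95750375, minus strand) had the fewest counts of the 6 over all libraries, 472. Its raw counts per library were 94 and 90 for BC, 44 and 78 for TBC, 6 and 65 for THC, 18 and 18 for TLC, and 25 and 34 for LC. On the CPM scale this was 18.4 and 7.65 in BC, 6.95 and 5.72 in TBC, 2.32 and 4.39 in THC, 3.16 and 1.64 in TLC, and 2.71 and 2.44 in LC. Only BC and TBC stood clear of the other 3 populations, and the BC libraries differed widely from each other. The gene was lower in LC than in BC, at a log2 value of -2.32 (SE 0.52, adjusted p = 0.00663). That call was lost without BC replicate 1 (log2 value -1.57, adjusted p = 0.0642) and without LC replicate 2 (adjusted p = 0.0506). THC against BC gave -1.82 (adjusted p = 0.0558), and TLC against TBC -1.44 (adjusted p = 0.105). The first passed with DESeq2 (adjusted p = 0.0156) and with no filter on low counts (adjusted p = 0.00732), and the second with no filter (adjusted p = 0.0497). The THC level is imprecise, since replicate 1 rests on 6 counts.

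Trpm7 (ENSMUSG00000027365, chromosome 2, 126791565 to 126876230, minus strand) was even across the populations. Its libraries ranged from 166 CPM (TBC replicate 2) to 239 CPM (TLC replicate 1), and no population stood apart. Among the 8 comparisons the largest log2 difference was 0.30 for TLC against TBC (95% interval -0.13 to 0.74, adjusted p = 0.383). For LC against BC it was -0.01 with a 95% interval of -0.44 to 0.42 (adjusted p = 0.981). At 15.7 to 19.4 RPKM as population means, Trpm7 was the highest per length of the 6 in TBC, THC and TLC, while Piezo1 at 27.8 ± 5.21 RPKM (SD, n = 2) was the highest in LC. In BC, Trpv4 and Trpm7 had the same mean of 17.6 RPKM.

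**Figure D3:**
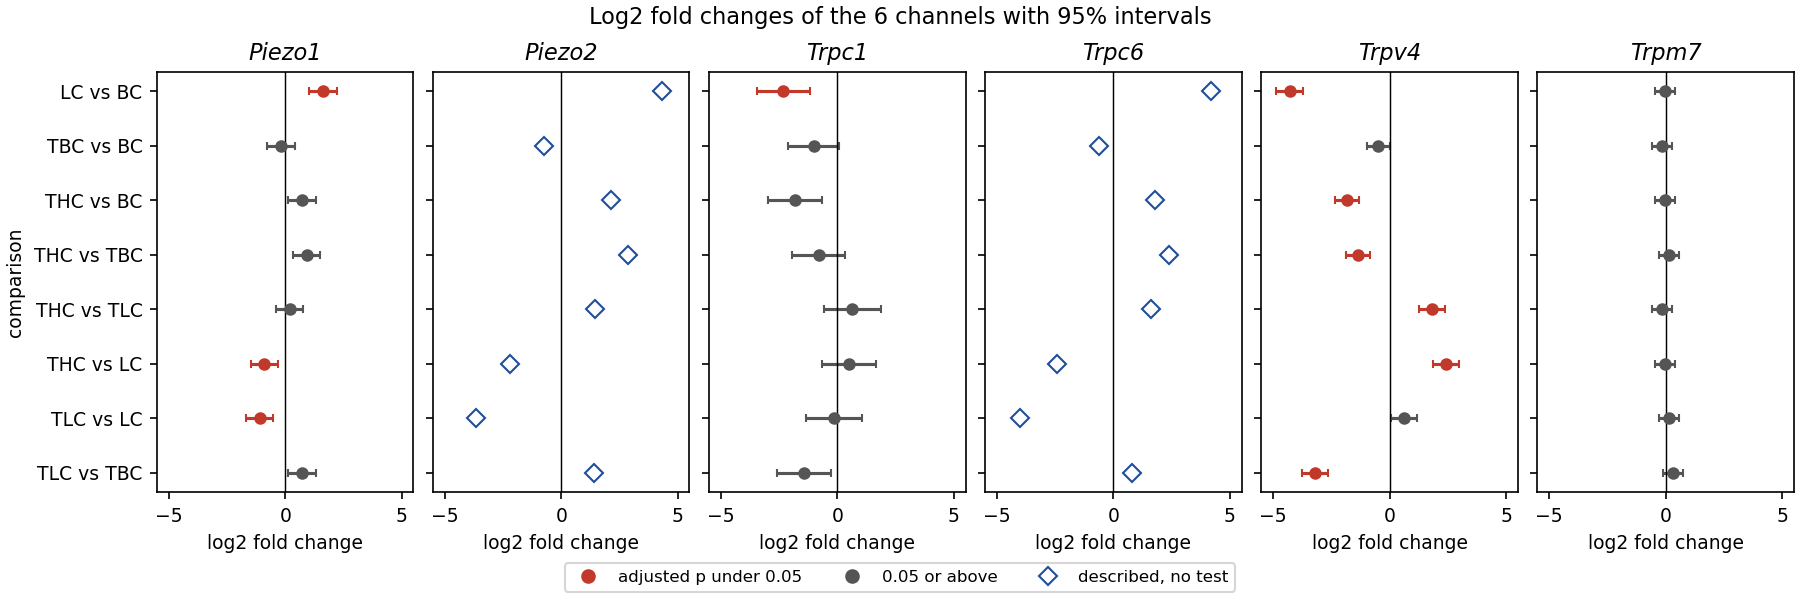
Log2 fold changes of the 6 channels in 8 comparisons, with 95% intervals for tested values; red points passed an adjusted p of 0.05, grey points did not, and open diamonds are values of Piezo2 and Trpc6 that chose these genes and were not tested. Trpv4 passed in 6 of the 8 comparisons and Trpm7 in none.

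In TBC against BC, a contrast of basal cells that spans both the ablation and the Tomato sort, none of the 4 tested channels passed. In the same contrast edgeR called 0% of all genes. At an unadjusted p under 0.05 there were 0 of the 4 and 1725 of all genes, while DESeq2 called 0 of the 4 and 206 genes and limma-voom 0 and 0. The log2 values of all 6 channels were negative, from -1.03 for Trpc1 to -0.16 for Trpm7. For Trpv4 the value was -0.48, with a 95% interval of -0.97 to 0.0047 (adjusted p = 0.574).

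Counts of calls among the 4 channels tested in every comparison were set beside the share of all genes. In LC against BC, 3 of 4 passed where 24% of genes did: 1 was higher (Piezo1, against 11.5% of genes) and 2 were lower (Trpc1 and Trpv4, against 12.5%). In THC against BC only Trpv4 passed, as a lower gene, where 7.71% of genes passed, 5% higher and 2.72% lower. In THC against TBC it was again Trpv4 alone, lower, where 3.72% passed, 2.57% higher and 1.14% lower. In THC against TLC it was Trpv4 alone, higher, where 1.61% passed, 1.52% higher and 0.0911% lower. In THC against LC, Piezo1 was lower and Trpv4 higher, where 12.9% passed, 8.91% higher and 4% lower. In TLC against LC, Piezo1 alone passed, lower, where 8.22% passed, 4.46% higher and 3.77% lower. In TLC against TBC, Trpv4 alone passed, lower, where 13.6% passed, 5.59% higher and 8.02% lower.

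Whether TLC differed from LC in another way than TBC from BC was tested as an interaction. None of the 4 passed, against 0.911% of genes (0.552% higher and 0.359% lower), although 2 had an unadjusted p under 0.05 (Piezo1, adjusted p = 0.406, and Trpv4, adjusted p = 0.215), and DESeq2 and limma-voom called 0 of 4. Trpv4 was lower in both TBC libraries than in both BC libraries and higher in both TLC libraries than in both LC libraries. Neither difference passed in edgeR (adjusted p = 0.574 for TBC against BC and 0.187 for TLC against LC). The share of all genes that separate in this way was not counted, so no conclusion is drawn from it.

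Markers of other cell types also moved with THC and are given beside the THC values. The 14 endothelial markers summed to 959 and 961 CPM in THC, 298 and 325 in TBC, 165 and 201 in TLC, 657 and 191 in BC, and 459 and 198 in LC. Of these 14 genes, 1 rose in THC against TBC and 2 against TLC, where 2.57% and 1.52% of all genes rose. The medians were 1.71 and 2.45 on the log2 scale. In THC against LC 5 rose, where 8.91% of all genes did, and in THC against BC none did, where 5% of all genes did. None of the 14 was at 0 counts in any library. Fibroblast markers summed to 995 and 2070 CPM in the THC libraries (lower and higher), against 184 to 707 CPM in the 8 others. Of 10 fibroblast markers, none passed in THC against TBC or against TLC, and 4 rose against BC and 6 against LC. Immune markers reached 143 and 344 CPM in THC against 48.4 to 105 CPM elsewhere. Of 10 tested immune markers, none passed in THC against TBC, and 1 rose against TLC, 2 against BC and 5 against LC. Pericyte markers summed to 391.8 and 520.3 CPM in THC against 173 to 419 CPM elsewhere. That sum includes Notch3, which was higher in LC than in BC (log2 difference 2.87, SE 0.32, adjusted p = 7.92e-05). Of 9 tested pericyte markers, 3 rose in THC against TLC, with a median log2 value of 2.63, and 3 against LC. Against TBC and against BC it was 1 each. Markers of hormone-sensing luminal cells, 10 genes, summed to 6577 and 7768 CPM in LC, 2251 and 2480 in THC, 1502 and 1711 in TLC, and 323 to 487 in BC and TBC, the same order of LC, THC and TLC as Piezo2. None of these 10 passed in THC against TLC, where the median log2 value was 0.68 and Foxa1 went the other way (-0.54). Not all lists shared the order of LC, THC and TLC. The 10 luminal markers were lower in THC than in TLC. Alveolar progenitor markers summed to 3518 and 4744 CPM in LC, and THC (1576 and 2505) overlapped TLC (2020 and 2439). Schwann and nerve markers summed to 576 and 672 CPM in LC, 264 and 415 in THC, and 464 and 550 in TLC.

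Within BC and LC, endothelial markers were lower in replicate 2 than in replicate 1, with mean log2 differences of -1.88 and -1.94. Pericyte (-1.36 and -1.53), fibroblast (-0.40 and -1.50) and immune markers (-0.89 and -0.09) were lower in replicate 2 as well. Each value sets 1 library against 1. Over the same pairs Piezo2 differed by 0.16 and 0.85, Trpc6 by -0.38 and 0.14, and Trpv4 by 0.33 and 0.22. Piezo1, which endothelial cells also use, differed by -0.46 and -0.38, and Trpc1 by -1.24 and -0.14, in the same direction as the markers. LC, with the highest Piezo2 and Trpc6, had a lower summed endothelial level than THC in both libraries. Piezo2 is the channel of Merkel cells, and 8 Merkel cell and sensory markers summed to 127 and 64 CPM in LC, 108 and 62.8 in THC, 58.6 and 36.7 in TLC, and 10.3 to 39.6 in BC and TBC, so LC and THC were also highest for this list. Most of that sum was Cpe, a peptide-processing enzyme not limited to these cells, at 125 and 60.8 CPM in LC and 29.8 and 9.01 in BC (log2 difference 2.30, SE 0.65, adjusted p = 0.0322). Of the 8 markers, 2 had enough counts to be tested, and Atoh1, the factor that defines Merkel cells, was at 0 counts in all 10 libraries. The part of other cell types in the LC and THC levels was not tested.

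**Figure D4:**
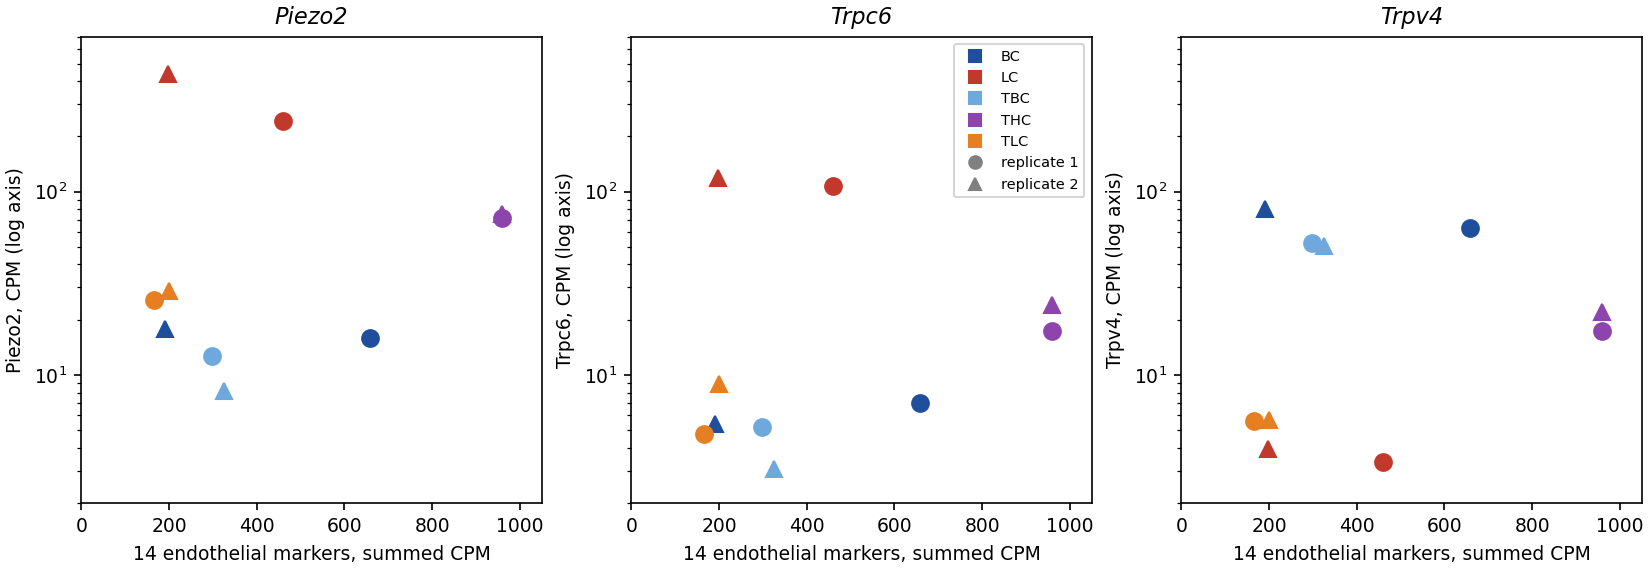
Piezo2, Trpc6 and Trpv4 (CPM, log axis) against the summed CPM of 14 endothelial markers in each library; colours are populations, circles replicate 1 and triangles replicate 2. The THC libraries lie at 959 and 961 on the horizontal axis, and the LC libraries, highest for Piezo2 and Trpc6, at 459 and 198.

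The rest of the Trp family was measured to place these channels among their relatives. Of 27 other Trp, mucolipin and polycystin genes, 13 had enough counts to be tested, and the 14 that had not reached at most 46 counts over all libraries, Trpc4, Trpa1 and Trpm8 among them. The vanilloid relatives of Trpv4 were also lower in LC than in BC, 3 of 3 tested, where 12.5% of all genes were lower. Trpv6, a calcium-selective epithelial channel, averaged 3.28 ± 0.58 CPM over the LC libraries and 21.7 ± 6.32 over the BC libraries (SD, n = 2), a log2 difference of -2.74 (SE 0.38, adjusted p = 0.000303). Trpv3, a heat-gated channel of skin keratinocytes, differed by -3.55 (SE 0.61, adjusted p = 0.00136). Trpv6 rose in TLC against LC, by 2.29 (SE 0.37, adjusted p = 0.00398), to 15.9 ± 6.54 CPM (SD, n = 2), a comparison in which Trpv4 gave 0.61 (adjusted p = 0.187).

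Among the melastatin relatives of Trpm7, Trpm3, a channel opened by steroids and heat, stood at 0.542 and 1.15 CPM in LC, 24.4 and 27.7 in THC, 27 and 54.8 in TBC, 14.3 and 13.8 in BC, and 9.12 and 4.55 in TLC. It was lower in LC than in BC (log2 value -3.97, SE 0.50, adjusted p = 0.000176) and higher in THC than in LC (4.87, SE 0.51, adjusted p = 0.00018). Of 4 tested melastatin genes besides Trpm7, 1 was higher and 1 lower in LC than in BC, against 11.5% and 12.5% of all genes. Trpm5, a channel gated by internal calcium, was higher in TLC than in TBC by 2.43 (SE 0.45, adjusted p = 0.00394). The polycystins Pkd1 and Pkd2, which sit in primary cilia, were lower in LC than in BC, at a log2 value of -1.38 (SE 0.27, adjusted p = 0.00318) and -1.54 (SE 0.21, adjusted p = 0.000334), and lower in TLC than in TBC, at -1.56 (SE 0.27, adjusted p = 0.00279) and -1.19 (SE 0.21, adjusted p = 0.00317).

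**Figure D5:**
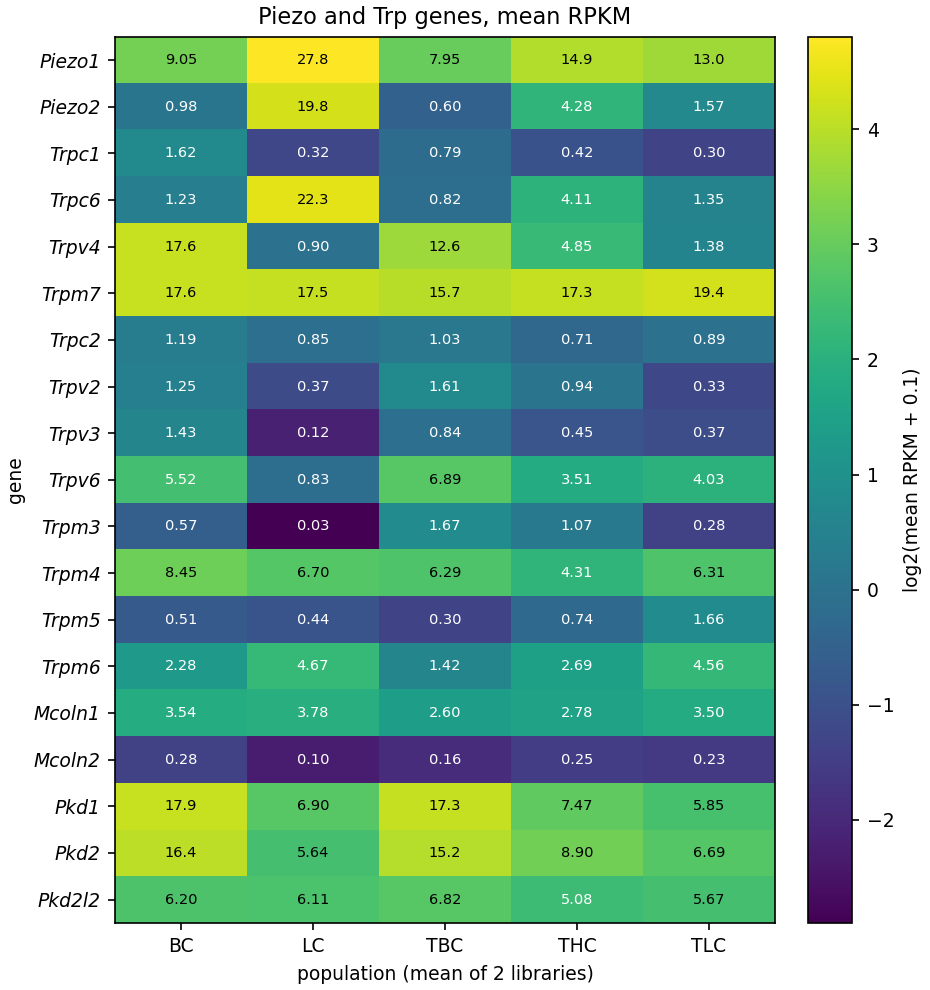
Mean RPKM of the 6 channels and the 13 other tested Trp, mucolipin and polycystin genes in each population (means of 2 libraries, printed in each cell; colour is log2 of mean RPKM + 0.1). Trpm7 lies between 15.7 and 19.4 in every population, and Piezo2 and Trpc6 reach 19.8 and 22.3 in LC.

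Genes related to these channels were counted from pathway lists. The lists hold Piezo partners, other stretch- and volume-gated channels, and the Trp, mucolipin and polycystin relatives described above. They also hold genes of phospholipase C, calcium entry and release, calcium pumps, calmodulin, calcineurin and NFAT. The pooled shares therefore mix channels with signalling genes. Over 89 tested genes of the pathway lists, the 6 channels left out, 14 were higher and 21 lower in LC than in BC, which is 39.3% called against 24% of all genes, with a median log2 value of -0.02 against -0.04 for all genes. In THC against TBC 6 were higher and 2 lower (8.99% against 3.72%), and in TLC against TBC 11 were higher and 16 lower (30.3% against 13.6%), with medians of -0.04 and -0.19 against 0.03 and 0.03 for all genes. In THC against BC 6 were higher and 7 lower (14.6% against 7.71%), and in THC against LC 14 were higher and 8 lower (24.7% against 12.9%), with medians of -0.05 and 0.01, both against 0.01 for all genes. In TLC against LC 11 were higher and 8 lower (21.3% against 8.22%), with a median of -0.09 against 0.0023. In THC against TLC 4 were higher and none lower (4.49% against 1.61%), with a median of 0.07 against 0.02, and in TBC against BC none passed in either direction.

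Upstream of Trpc6, both gamma genes of phospholipase C differed between LC and BC, in opposite directions. Plcg2 averaged 90.9 ± 13.97 CPM over the LC libraries and 10 ± 3.32 over the BC libraries (SD, n = 2), a log2 difference of 3.21 (SE 0.27, adjusted p = 1.22e-05). Plcg1 averaged 36.6 ± 1.64 CPM over the LC libraries and 167 ± 52.2 over the BC libraries (SD, n = 2), a difference of -2.19 (SE 0.26, adjusted p = 0.000127). In THC, Plcg2 was higher than in TBC by 2.25 (SE 0.26, adjusted p = 0.00144). Of 16 tested genes of the Gq and phospholipase C list 4 were higher and 3 lower in LC than in BC. Of all genes 11.5% were higher and 12.5% lower. The median log2 value of the list was 0.24.

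Other channels that answer swelling, stretch or flow included Lrrc8b, a subunit of the volume-regulated anion channel. It was higher in LC than in BC by 3.87 (SE 0.24, adjusted p = 3.01e-06), in TLC than in TBC by 2.82 (SE 0.23, adjusted p = 4.93e-05) and in THC than in TBC by 2.54 (SE 0.23, adjusted p = 0.000482). Its level was 75.5 ± 14.8 CPM in TLC and 62.2 ± 0.36 CPM in THC (SD, n = 2). Scnn1a, a subunit of the epithelial sodium channel, stood at 155 ± 22.9 CPM in LC, 33.8 ± 8.84 in TLC and 38.6 ± 4.24 in THC (SD, n = 2), and was lower in TLC than in LC, at a log2 value of -2.19 (SE 0.30, adjusted p = 0.00172). Of the 15 tested genes of this list 5 were higher and 4 lower in LC than in BC, against 11.5% and 12.5% of all genes. Of 6 tested Piezo partners none was higher and 1, Tmem150c, was lower in LC than in BC, against 11.5% and 12.5% of all genes. Tmem150c gave a log2 value of -2.46 (SE 0.40, adjusted p = 0.000895). Mdfic, an auxiliary subunit of Piezo channels, stood at 19.99 to 36.5 CPM in all libraries.

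Among other genes of calcium handling, Orai1, the pore of store-operated calcium entry, was higher in LC than in BC by 2.38 (SE 0.36, adjusted p = 0.000584). Itpr3, a release channel of the endoplasmic reticulum, was higher by 1.5 (SE 0.19, adjusted p = 0.000197). Of 12 tested genes of store-operated entry and release 2 were higher and 2 lower in LC than in BC, against 11.5% and 12.5% of all genes. Slc8a1, a sodium-calcium exchanger, was lower in TLC than in TBC, at a log2 value of -3.79 (SE 0.62, adjusted p = 0.00259). Nfatc4, a transcription factor switched on by calcineurin, was lower in LC than in BC, at a log2 value of -3.68 (SE 0.42, adjusted p = 8.74e-05) and in TLC than in TBC, at -3.29 (SE 0.42, adjusted p = 0.000385). Of 17 tested genes of calmodulin, calcineurin and NFAT none was higher and 3 were lower in LC than in BC. Of all genes 11.5% were higher and 12.5% lower, so the lower count is near the general share.

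The genes most alike in pattern were ranked by the Pearson correlation of log2 CPM over the 10 libraries among 12994 genes with a mean of at least 5 CPM. The libraries fall into 5 populations, so a high value mainly says that the population levels run in parallel, and no p is given. For Piezo2 the closest included Dnajc12, Tmem56, Glul and Abcc3, with r from 0.98 to 0.995. Glul, which makes glutamine, averaged 1309 CPM in LC, 487 in THC, 251 in TLC, 134 in BC and 102 in TBC, in the same order as Piezo2. For Trpc6 they included Tox2, Mospd2, Atp13a3 and Muc16, all at r = 0.98. Between Piezo2 and Trpc6 themselves r was 0.98, between Piezo1 and each of them 0.93, and between Piezo2 and Trpv4 -0.74. Piezo2 and Trpc6 were chosen for a shared pattern over these libraries, so the high r between them follows from the choice. For Trpv4 the first 3 were Lamb3, a laminin chain that anchors basal cells to the basement membrane, Tpgs2 and C230034O21Rik, all at r = 0.99. For Piezo1 the first 3 were Cd55, Ctu2 and Gfod1, and for Trpc1 they were Rdh11, Nfyb and Dapk2, all at r = 0.94. The closest gene to Trpm7, Slc5a8, reached r = 0.85.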

How the data were processed

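The deposited tables hold raw counts per Ensembl gene for each library; per the submitters' processing notes the authors used STAR, HTSeq and GRCm38 (mm10), and tool versions, the annotation release and the strandedness of counting were not given in the sources used here. Per the labels, libraries were made with the Ovation Solo RNA-Seq system. HTSeq's summary entries were removed (in all 10 tables the low-quality entry repeats the not-unique one, so it was counted once; reads without a feature, 12.6% to 30.8%; ambiguous, 2.71% to 3.48%). GENCODE M21 gave symbols for 49412 of 49671 identifiers, and exon lengths. edgeR 4.0.16 (filterByExpr, TMM, robust quasi-likelihood F-test, all 10 libraries, 5 residual degrees of freedom) tested 19757 genes, with a threshold of 0.05 on p-values adjusted by Benjamini and Hochberg; log2 CPM used a prior count of 2. SEs are the log2 fold change over the root of F. Alternatives used DESeq2 1.42.0, limma 3.58.1, R 4.3.3, other filters and scaling, the populations compared alone, a library number term, and leaving out each library.

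Members, lists and tests were chosen with earlier results of these data known. Piezo2 and Trpc6 were planned to be tested in TBC against BC and TLC against TBC; these tests were dropped, since the choice of both genes used their TBC and TLC levels. Named pathway genes were up to 2 per list and comparison with the smallest adjusted p and at least 5 CPM; from these, ones whose calls held in every alternative were preferred after seeing results. Mdfic, Trpc4, Trpa1, Trpm8, Cpe and Atoh1 were named outside that rule. Some genes that the rules select are not reported here. Promoter windows are from RefSeq, matched by symbol. They were searched for 5 of the 6 genes, and Piezo2 was left out because chromosome 18 was not used for sequences.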

Additional observations from a re-analysis of the deposited data

Results flagged for a closer look

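Of the 89 tested genes of the pathway lists, 1 was called in the interaction, which is 1.12% against 0.911% of all genes. That is near the share of all genes. The gene was Atp2a3, a calcium pump of the endoplasmic reticulum, whose difference of TLC from LC was itself different from that of TBC from BC. It stood at 94.6 ± 25.5 CPM in TLC against 3.87 ± 1.33 in LC, and at 4.66 ± 0.997 in TBC against 3.71 ± 1.40 in BC (SD, n = 2). The log2 fold changes were 4.59 and 0.37, and the difference between them was 4.22 (adjusted p = 0.00926 in edgeR's quasi-likelihood test). THC lay at 45.7 and 25.0 CPM in replicates 1 and 2, between TLC and the other populations. Over 15 alternative fits the adjusted p reached 0.0647 and was under 0.05 in 14. Of the 6 channels, the 4 put to this test did not pass it.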

How the results depend on the processing

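Of the values for the 6 channels under the alternatives, 567 kept their direction and their side of the threshold (or, untested, moved by less than the spread), 16 tested values lost a call, 9 gained one, 26 untested values of Piezo2 and Trpc6 moved by more than the spread, and none that was called reversed; a value that passed in neither fit was not counted as reversed. The number of channels called in THC against BC, 1 of 4, became 2 with DESeq2 and 2 with no filter (Trpc1 added, adjusted p = 0.0156 and 0.00732). With no filter it also went from 1 to 2 in THC against TBC (Piezo1, adjusted p = 0.0133) and in TLC against TBC (Trpc1, adjusted p = 0.0497). In THC against LC it went from 2 to 1 with a filter of 5 CPM in 2 libraries (Piezo1, adjusted p = 0.0531). The cause was not tested. Leaving out 1 library at a time gave 2 to 3 calls in LC against BC, 0 to 1 in THC against TBC and THC against TLC, 0 in TLC against LC in each of the 4 fits, 1 in THC against LC and THC against BC, and 1 to 2 in TLC against TBC. These fits have fewer samples and take the spread of the lone library's population from the others. No pairing of libraries is stated, and the first and second libraries share only a set of library numbers (44 to 48 and 80 to 84). Their deviations from the population means correlated across genes at -0.01 to 0.42, over 0.1 in 8 of 10 pairs of populations (0.41 for BC with LC, 0.42 for THC with TLC) but not in all, so the sets were not taken as pairs. With the set as a replicate block 3 channels were called in THC against BC (Piezo1 and Trpc1 added, adjusted p = 0.0439 and 0.0371), 2 in THC against TBC (Piezo1, adjusted p = 0.024) and 2 in TLC against TBC (Piezo1, adjusted p = 0.0346), and the numbers of channels called in the 6 other tests, the interaction included, were the same. RLE factors changed no number of channels called. Of the genes of the pathway lists set by the naming rule, 758 values kept their call and 103 lost it. Depth limits Trpc1, with 6 counts in THC replicate 1.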
